A study of Mus musculus with 77 samples.

Results

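Genes of antigen presentation by the major histocompatibility complex (MHC) were followed in RNA sequencing of cell types from mouse cerebral white matter with and without stroke. The set comprised every gene whose symbol starts with H2-, the prefix of the mouse MHC, together with B2m, Tap1, Tap2, Tapbp, Psmb8, Psmb9, Psmb10, Cd74, Ciita, Nlrc5, Erap1 and Ifi30. These were 57 of the 52636 gene identifiers in each count table: 41 of class I presentation, 15 of class II presentation, and H2-Ke6, which carries the prefix but encodes a steroid dehydrogenase and no MHC chain. Of the 57 genes, 50 lie on chromosome 17 between positions 33915899 and 37483552 of the GRCm38 genome, a stretch of 3.57 Mb. The labels name 5 cell types: EC (7 stroke and 5 control libraries), pericyte (8 stroke and 7 control), OPC (6 stroke and 6 control), astrocyte (6 stroke and 6 control) and microglia (9 P4 stroke, 9 P2 stroke and 8 P2 control). They expand none of EC, OPC, P2 and P4. Strain, genotype, age, the way the stroke was made, the time after it and the way cells were isolated were not given in the sources used here, and neither was whether libraries came from separate animals. The p-values below therefore measure the spread between these libraries, which may be technical.

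MHC class I molecules show peptides from inside a cell to CD8+ T cells. Each is a heavy chain, such as H2-K1 or H2-D1, paired with the light chain B2m. Peptides are cut by the proteasome, whose immune form holds the subunits Psmb8, Psmb9 and Psmb10, carried into the endoplasmic reticulum by the transporter Tap1 with Tap2, trimmed by Erap1, and loaded with the help of Tapbp. Nlrc5 is the transactivator of class I genes. Class II molecules show peptides from outside the cell to CD4+ T cells and are held mainly by dendritic cells, macrophages and B cells. H2-Aa, H2-Ab1 and H2-Eb1 are chains of class II molecules, and Cd74 is the invariant chain that guards the groove of these molecules. H2-DMa with H2-DMb1 or H2-DMb2 exchanges the peptide, and H2-Oa and H2-Ob restrain that exchange. Ifi30 is a lysosomal thiol reductase, and Ciita is the transactivator of class II genes. In brain tissue both pathways are low at rest and are known to respond to interferons, above all in microglia.

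The promoters of 6 of these genes are shown because the genes stand for the parts of both pathways described below: the class I heavy chains, the light chain, the transporter and 2 class II chains. Windows reach from 250 bases before to 50 bases after the start in RefSeq (build GRCm38.p6), and 40 of the 57 genes matched one. Letters in capitals mark matches, on either strand, to the motifs listed after the sequences.
H2-K1, chr17:34000298-34000597, - strand: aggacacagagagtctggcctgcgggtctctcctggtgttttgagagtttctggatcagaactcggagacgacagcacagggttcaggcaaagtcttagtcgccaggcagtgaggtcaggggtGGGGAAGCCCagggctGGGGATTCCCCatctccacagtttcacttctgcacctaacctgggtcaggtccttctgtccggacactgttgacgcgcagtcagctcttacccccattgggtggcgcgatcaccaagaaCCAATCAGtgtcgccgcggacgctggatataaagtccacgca
H2-D1, chr17:35262844-35263143, + strand: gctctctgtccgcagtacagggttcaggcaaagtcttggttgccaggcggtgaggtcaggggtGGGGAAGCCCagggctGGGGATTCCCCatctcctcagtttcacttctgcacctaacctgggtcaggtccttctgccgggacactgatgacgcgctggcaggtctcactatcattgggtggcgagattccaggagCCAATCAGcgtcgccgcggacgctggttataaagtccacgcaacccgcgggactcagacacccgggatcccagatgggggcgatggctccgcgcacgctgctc
B2m, chr2:122147437-122147736, + strand: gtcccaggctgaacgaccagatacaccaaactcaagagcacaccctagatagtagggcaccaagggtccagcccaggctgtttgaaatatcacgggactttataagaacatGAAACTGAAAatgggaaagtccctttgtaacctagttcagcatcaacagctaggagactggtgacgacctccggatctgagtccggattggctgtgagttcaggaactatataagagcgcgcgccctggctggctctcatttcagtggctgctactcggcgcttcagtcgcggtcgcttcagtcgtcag
Tap1, chr17:34187306-34187605, + strand: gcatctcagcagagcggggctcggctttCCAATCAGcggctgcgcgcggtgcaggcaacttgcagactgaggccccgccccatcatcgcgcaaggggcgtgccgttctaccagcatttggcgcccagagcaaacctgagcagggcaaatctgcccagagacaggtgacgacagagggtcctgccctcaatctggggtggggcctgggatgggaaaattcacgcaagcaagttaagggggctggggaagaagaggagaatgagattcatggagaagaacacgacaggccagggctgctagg
H2-Aa, chr17:34287774-34288073, - strand: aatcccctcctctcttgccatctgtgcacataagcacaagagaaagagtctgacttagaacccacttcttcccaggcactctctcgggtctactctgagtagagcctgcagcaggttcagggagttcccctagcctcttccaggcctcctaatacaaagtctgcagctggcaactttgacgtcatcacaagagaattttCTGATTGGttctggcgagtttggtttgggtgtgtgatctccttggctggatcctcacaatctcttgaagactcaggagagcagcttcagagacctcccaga
H2-Eb1, chr17:34305617-34305916, + strand: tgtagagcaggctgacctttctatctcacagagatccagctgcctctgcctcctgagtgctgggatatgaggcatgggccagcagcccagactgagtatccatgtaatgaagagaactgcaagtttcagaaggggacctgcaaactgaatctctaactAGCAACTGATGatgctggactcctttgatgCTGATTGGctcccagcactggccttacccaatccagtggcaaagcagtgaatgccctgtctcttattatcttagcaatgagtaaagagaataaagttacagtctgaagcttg

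The motifs were searched by their letters alone, so a match describes the sequence and is not a shown site. The Y box, CTGATTGG, is a CCAAT motif known from class II promoters. It was in 4.10% of all 32851 windows, in 16 of 30 class I windows and in 4 of 9 class II windows (H2-Aa, H2-Eb1, H2-Eb2 and H2-Oa). Among the class I windows were those of H2-K1, H2-D1 and Tap1. Also among them were H2-M1, H2-M9, H2-M11, H2-M10.1, H2-M10.3, H2-M10.4, H2-M10.5 and H2-M10.6, which had too few counts to be tested in any cell type. The X box is AG, any 2 bases, AC, any base and GATG in a row, and is bound in class II promoters by the RFX complex. It was in 0.968% of all windows and in 5 of 30 class I windows (H2-M10.1, H2-M10.2, H2-M10.5, H2-M10.6 and Psmb10). Of the class II windows 4 of 9 held it (H2-DMb1, H2-Eb1, H2-Eb2 and H2-Oa). The kappaB motif, GGGGA, any 2 bases and CCC in a row, was in 1.65% of all windows, in 4 of 30 class I windows (H2-D1, H2-K1, H2-Q6 and H2-Q7) and in 0 of 9 class II windows. In H2-K1 and H2-D1 neighbouring kappaB matches overlap each other. The core of the interferon-stimulated response element, GAAA, any 2 bases and GAAA in a row, was in 3.44% of all windows and in 4 of 30 class I windows (B2m, Erap1, H2-T22 and H2-T23). The gamma-activated site, TTCNNNGAA, was in 8.30% of all windows, in 3 of 30 class I windows (H2-M11, H2-M3 and Psmb8) and in the class II window of H2-DMb2. The windows of Tap1 and Psmb9, genes that run away from each other, share 275 bases. The Y box match of Tap1 lies in these bases and is counted for both genes.

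A microglial library held 5530125 to 11770194 counts in all and 5876 to 14243 genes with 10 counts or more. A library of the 4 other types held 43367636 to 142944063 counts and 17503 to 24329 such genes. Levels are in CPM, the counts of a gene scaled to a library size common to all libraries, and tests used edgeR's quasi-likelihood method with Benjamini-Hochberg adjustment over all genes tested, with a gene called to rise or fall at an adjusted p under 0.05. Fold changes have a standard error (SE). Libraries of each type held RNA of other types as well. The OPC libraries had 10625 to 13298 summed CPM of 10 OPC markers in stroke and 11866 to 13883 in control, beside 57426 to 78142 CPM of mature oligodendrocyte markers in stroke and 98759.6 to 113148 in control. The EC libraries had 2907 to 4774 CPM of endothelial markers in stroke and 2016 to 3423 in control, beside 4187 to 5554 of neuron markers in stroke and 6222 to 8587 in control. Mature oligodendrocyte markers in EC libraries were higher still, at 10732.5 to 20845 CPM in stroke and 8959 to 18123 in control. Astrocyte markers there were at 2854 to 6428 CPM in stroke and 2438 to 4723 in control. Among EC libraries, those numbered up to 6 (3 stroke, 2 control) had at least 123424129 counts and those above 6 (4 stroke, 3 control) at most 80697263, so values within each of these classes stand beside the EC results. Pericyte controls 11 and 15 were the closest library pair within a group of that table, with a mean chi-square of 15.8 per gene against 92.3 for the next closest, which is above sampling noise, and they were kept as 2 libraries. In such mixed samples, fewer cells of a type and less RNA per cell cannot be told apart, and neither can more MHC RNA in one cell type and more cells of another that holds it.

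Class I RNA was abundant in the libraries of all 5 cell types. The summed level of the 41 class I genes was 6612 to 10278 (median 8818) CPM in EC stroke libraries and 3800.2 to 6174 (median 5702) in EC controls, without overlap. In pericytes it was 2933 to 8009.7 (median 4551) in stroke and 705 to 3395 (median 1781) in controls. In OPC the sum was 1286 to 2902 (median 2237) in stroke and 611 to 1149 (median 666) in controls, and no control reached a stroke library. Astrocytes had 2763 to 4143 (median 3282) in stroke and 1434 to 2225 (median 1845) in controls, again without overlap. Microglia had 5586 to 12506 (median 8021) in P4 stroke, 2507 to 7232 (median 6108) in P2 stroke and 1774 to 5503 (median 2771) in P2 control libraries. P2 stroke overlapped with both other groups, while every P4 stroke library lay above every P2 control library, a pair that was not tested. The tables were counted and scaled separately, so cell type and table cannot be told apart, and these levels are a description with no test between cell types.

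The 15 class II genes summed to 87.3 to 381 (median 262) CPM in EC stroke libraries and 72.9 to 196 (median 119) in EC controls, and to 125 to 401 (median 192) in pericyte stroke and 43.9 to 186 (median 84.4) in pericyte control libraries. In OPC the sums were 43.3 to 119.5 (median 60.1) in stroke and 16.3 to 26.7 (median 18.4) in control libraries, which did not overlap. Astrocytes had 92.9 to 187 (median 117) in stroke and 30.9 to 142 (median 53.6) in control libraries. In microglia the sums were 262 to 1336 (median 555) in P4 stroke, 52.2 to 1592 (median 282) in P2 stroke and 9.97 to 435 (median 253) in P2 control libraries. The 12 microglia markers moved beside both sums. They summed to 230.2 to 407 (median 296) CPM in EC stroke and 132 to 204 (median 173) in EC control libraries, and to 2570.0 to 5368 (median 3163) in pericyte stroke and 392 to 2179 (median 578) in pericyte control libraries. In OPC they were 565 to 1025 (median 669) in stroke and 99.3 to 170.5 (median 104) in control libraries, and in astrocytes 1567 to 2398 (median 1731) in stroke and 518 to 701 (median 653) in control libraries. The 3 sums were therefore all higher in stroke in these 4 cell types, and the part of the microglial RNA in the MHC changes was not tested.

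**Figure D1:**
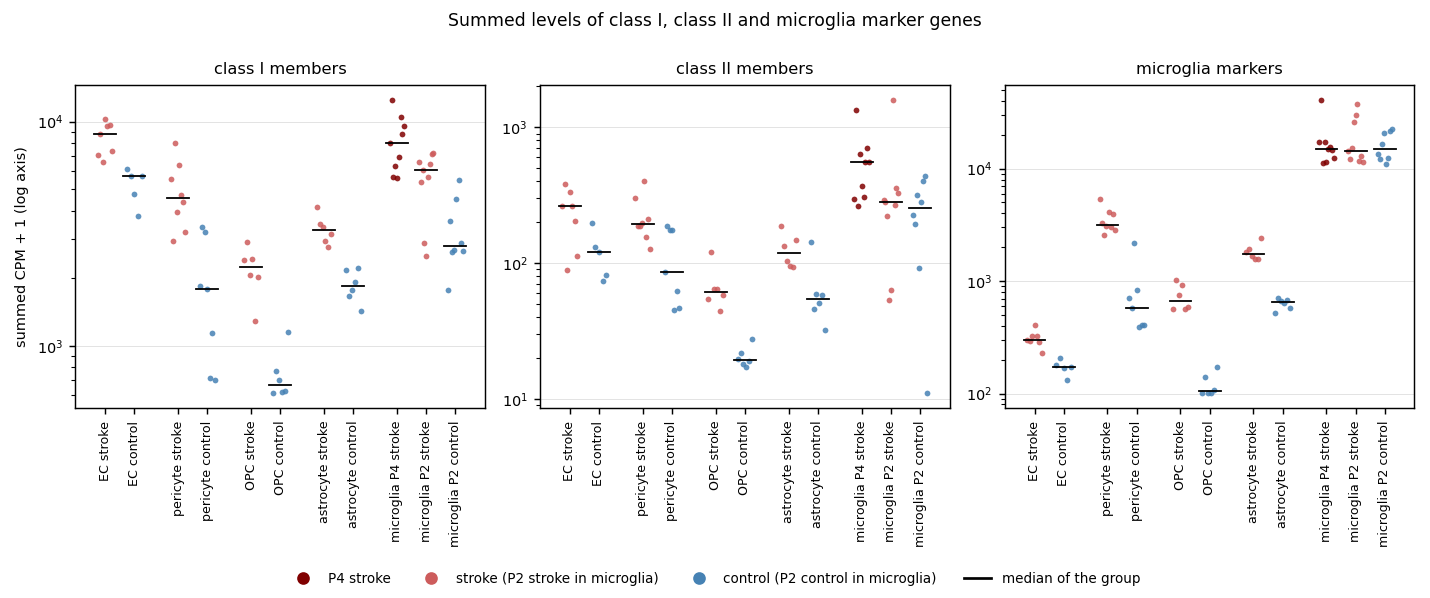
Summed CPM plus 1 (log axis) of the 41 class I genes, the 15 class II genes and the 12 microglia markers in each of the 77 libraries, by cell type and condition, with the group median as a black line. In EC, OPC and astrocytes every stroke library lies above every control library in the class I and microglia panels. In pericytes this holds in the microglia panel alone. OPC class II sums are 43.3 to 119.5 CPM in stroke and 16.3 to 26.7 in control libraries.

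Per CPM of microglia markers, a description with no test, both pathways were lower in stroke than in control OPC libraries. Class II genes had 0.0687 to 0.117 CPM per CPM of microglia markers in OPC stroke and 0.147 to 0.188 in OPC control libraries, without overlap. Class I genes had 2.27 to 4.28 in OPC stroke and 5.45 to 7.06 in OPC control libraries, also without overlap. The class I ratio was 1.32 to 2.30 in astrocyte stroke and 2.38 to 4.21 in astrocyte control libraries, again apart. In pericytes it was 0.899 to 3.12 in stroke and 1.47 to 5.87 in control, and in EC 20.6 to 33.4 in stroke and 27.9 to 34.2 in control libraries, with overlap in both. The P4 stroke microglia themselves had 0.306 to 0.770, the P2 stroke microglia 0.0837 to 0.636 and the P2 control microglia 0.118 to 0.438. Every library of the 4 other types thus had a class I ratio above the highest microglial one. For class II the ratio was 0.272 to 1.31 in EC stroke and 0.466 to 1.09 in EC control libraries, against 0.0171 to 0.0478 in P4 stroke, 0.00201 to 0.0423 in P2 stroke and 0.000445 to 0.0322 in P2 control microglia. It was 0.0441 to 0.0976 in pericyte stroke and 0.0805 to 0.321 in pericyte control libraries, and 0.0591 to 0.104 in astrocyte stroke and 0.0542 to 0.274 in astrocyte control libraries. Only the pericyte stroke range reached that of microglia. Single microglia markers moved unequally, so these ratios depend on the markers chosen. In OPC the median of Sall1 was 29.4 CPM in stroke and 21.2 in control libraries, and that of Tmem119 was 37.1 and 5.30.

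Levels per kilobase of exon put the heavy and light chains on 1 scale. In P4 stroke microglia B2m averaged 6529 CPM per kb and H2-D1 338, in P2 stroke microglia 4223 and 205, and in P2 control microglia 2403 and 115. In OPC controls the same means were 125 for B2m and 117 for H2-D1, close to each other. The sum of H2-K1 and H2-D1 per CPM of B2m, on the CPM scale, was 0.128 to 0.359 in P4 stroke, 0.116 to 0.509 in P2 stroke and 0.0977 to 0.362 in P2 control microglia. It was 1.68 to 3.14 in EC stroke and 1.94 to 2.63 in EC control, 1.15 to 2.18 in pericyte stroke and 1.48 to 3.13 in pericyte control libraries. OPC had 3.00 to 3.19 in stroke and 3.33 to 5.13 in control, and astrocytes 1.39 to 2.48 in stroke and 2.04 to 2.64 in control libraries. The ratio was lower in every microglial library than in every library of the other types. The tables were counted separately, and whether the same aligner served all of them is not known.

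In EC, class I genes such as H2-K1, Tap1 and H2-T22 were modestly higher in stroke and few class II genes passed. Of 57 genes 41 passed the filter on low counts and 5 had no count in any EC library. Among 29 class I genes tested, 14 rose, 15 did not pass and 0 fell, where 3.57% of all tested genes rose and 2.67% fell. Their median log2 fold change was 0.67, against 0.03 over all genes, and 9 of the 29 had every stroke library above every control (1.86% of all genes). Of 11 class II genes tested 3 rose (Ifi30, H2-DMb2 and Ciita), 0 fell and 8 did not pass, with a median of 1.23. The class I count was 4 without control 7 and 6 without control 9, and the class II count was 0 without either, and 1 without stroke 2, 4, 8, 10 or 12 or control 5 or 11. In the library numbers up to 6 the median was 0.37 for class I and 0.64 for class II, and above 6 it was 0.76 and 1.53. Within either class alone 0 genes were called by edgeR, while 11 and 17 class I genes and 3 and 9 class II genes had an unadjusted p under 0.05. Besides the genes described below, the lowest p-values belonged to H2-T22 (log2 fold change 0.60 ± 0.10 SE, edgeR adjusted p = 0.0103), Tap2 (0.59 ± 0.11), H2-Q6 (0.71 ± 0.13), H2-T23 (0.63 ± 0.12), Ifi30 (1.26 ± 0.25, adjusted p = 0.0170) and H2-Q7 (0.98 ± 0.20). H2-T22 had 84.8 to 112 CPM (median 88.4) in stroke, against 56.9, 59.3, 59.7, 60.0 and 74.3 CPM in control libraries, without overlap, and is a nonclassical class I gene known as a ligand of gamma delta T cells. Left out singly, control 7 and control 9 each ended the calls of H2-D1, H2-Q7, Psmb8, Psmb9 (0.62 to 0.81 over all such fits), Tapbp (0.46 to 0.58), and Ifi30 (1.11 to 1.40), and control 7 also those of Tap2 (0.54 to 0.64) and H2-T23 (0.56 to 0.69). H2-Q4 lost its call without control 7 or 9 or stroke 8 or 10 (0.59 to 0.79), Psmb10 in 8 of 12 such fits (0.29 to 0.35; all but those without control 3 or 11 or stroke 2 or 14), and H2-DMb2 in 11 of 12 (1.75 to 2.09; all but that without stroke 14).

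Beside these EC changes, 6 of 12 microglia markers rose (median log2 fold change 0.80), with P2ry12 at 7.63 to 13.5 CPM in stroke and 5.79 to 6.44 in control libraries. Of 10 monocyte and border macrophage markers 8 were tested and 3 rose, with a sum of 13.1 to 42.4 CPM in stroke and 6.75 to 21.1 in control libraries. Mrc1, which marks border macrophages, was at 0 to 0.679 CPM in stroke and 0 to 0.121 in control libraries. Ccr2, from the same list, was at 0.128 to 6.73 CPM in EC stroke and 0 to 0.442 in EC control libraries, with overlap. Of 9 dendritic cell markers 8 were tested and 0 were called by edgeR (4 at an unadjusted p under 0.05, 2 called by DESeq2). They summed to 24.7 to 41.9 CPM in stroke and 22.5 to 26.7 in control libraries. All 10 endothelial markers had higher estimates in stroke (median log2 fold change 0.42). Of these 2 rose and 7 had an unadjusted p under 0.05 by edgeR. Among 8 neuron markers 5 fell and 0 had a higher estimate in stroke. Of 12 lymphocyte markers 11 were tested and 0 were called by edgeR (2 at an unadjusted p under 0.05, 0 by DESeq2), with a sum of 35.3 to 58.3 CPM in stroke and 43.96 to 76.0 in control libraries. The part of these in the MHC changes was not tested.

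In pericytes, 18 of 29 tested class I genes rose, 11 did not pass and 0 fell, in a table where 15.9% of all tested genes rose and 12.8% fell. Of 57 genes 41 were tested and 1 had no count. The class I median was 1.31, against -0.08 over all genes, and 6 genes did not overlap between groups (4.49% of all genes). Of 11 class II genes 4 rose (H2-DMa, H2-DMb1, H2-DMb2 and Ifi30), 0 fell and 7 did not pass, with a median of 1.12. The class II genes that rose belong to peptide exchange and reduction, and none of the chains H2-Aa, H2-Ab1 and H2-Eb1 passed. Of the nonclassical class I genes 7 of 18 tested rose. Besides the 12 genes described below, the lowest p-values belonged to H2-Q5 (log2 fold change 3.15 ± 0.43 SE, edgeR adjusted p = 0.000136), H2-M3, which presents formylated peptides (1.86 ± 0.28), H2-Q10 (4.96 ± 0.97, adjusted p = 0.00178) and H2-Q7 (2.65 ± 0.59), with Tapbp (1.29 ± 0.30) and H2-DMb1 (2.26 ± 0.53). H2-Q10, which encodes a secreted class I molecule known from mouse liver, had 5.90 to 30.9 CPM (median 15.8) in stroke and 0 to 2.64 CPM (median 0.0613) in control libraries, with no overlap. H2-Q5, annotated as a polymorphic pseudogene, had 2.35 to 9.75 CPM (median 4.57) in stroke and 0.199 to 1.05 CPM (median 0.495) in control libraries, also apart. The call of H2-T23 was lost without stroke 10 or control 14 (1.15 to 1.82 over all fits that left out 1 library), and that of H2-DMb2 in 10 of 15 such fits (1.62 to 2.35; all but those without stroke 3, 7 or 16 or control 6 or 8).

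Beside the pericyte changes, all 12 microglia markers rose (median log2 fold change 2.15), with Tmem119 at 239 to 418 CPM in stroke and 48.1 to 231 in control libraries. Neutrophil markers summed to 2.80 to 14.4 CPM in stroke and 0.0766 to 0.930 in control libraries, and 2 of the 3 tested rose. Monocyte and border macrophage markers summed to 18.3 to 56.0 CPM in stroke and 6.64 to 29.2 in control libraries, and 2 of 9 tested rose. Ccr2 was at 0.109 to 2.54 CPM in stroke and 0.0153 to 2.35 in control libraries. Mature oligodendrocyte markers fell (8 of 10) and 6 of 8 neuron markers fell. Of 9 pericyte markers 2 rose, with a sum of 8091 to 19181 CPM in stroke and 4274 to 18243 in control libraries. Of 9 dendritic cell markers 3 rose and 0 fell, with a sum of 30.1 to 47.9 CPM in stroke and 25.0 to 47.1 in control libraries. Of 12 lymphocyte markers 8 were tested, of which 1 rose and 2 fell, with a sum of 6.73 to 23.4 CPM in stroke and 17.2 to 38.2 in control libraries. Their part in the MHC changes was not tested.

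In OPC, nearly every tested gene of both classes rose. Of 57 genes 34 were tested and 10 had no count in any OPC library. Among 24 class I genes 21 rose, 0 fell and 3 did not pass, where 11.7% of all tested genes rose and 8.77% fell. Their median was 1.72, against -0.01 over all genes, and 15 did not overlap between groups (7.19% of all genes). Of 10 class II genes 9 rose and Ciita did not pass, with a median of 2.46 and 6 genes without overlap. All 21 class I calls and all 9 class II calls held in each of the 12 fits that left out 1 library. The lowest p-values besides the genes below belonged to Psmb9 (log2 fold change 3.17 ± 0.25 SE, edgeR adjusted p = 9.25e-07), Tapbp (1.18 ± 0.13), H2-Q4 (3.01 ± 0.38), H2-Q7 (3.36 ± 0.44), H2-T23, the mouse Qa-1 gene (2.18 ± 0.30), and H2-T22 (1.59 ± 0.22). Psmb9 had 7.89 to 28.9 CPM (median 17.9) in stroke and 1.60 to 2.75 CPM (median 1.93) in control libraries, and H2-Q4 0.745 to 2.01 CPM (median 1.29) in stroke and 0.0523 to 0.262 CPM (median 0.162) in control libraries. Neither gene overlapped between groups.

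Beside the OPC changes all 12 microglia markers rose (median log2 fold change 2.76), 10 of 10 mature oligodendrocyte markers fell, 6 of 10 astrocyte markers rose and 1 of 10 OPC markers fell. P2ry12 was at 12.2 to 32.8 CPM in stroke and 5.40 to 12.4 in control libraries. Monocyte and border macrophage markers summed to 4.46 to 8.82 CPM in stroke and 0.281 to 1.94 in control libraries, and 2 of 5 tested rose. Mrc1 was at 0.0721 to 0.541 CPM in stroke and 0 to 0.535 in control libraries. Ccr2 was at 0.0577 to 0.602 CPM (median 0.181) in stroke and 0 to 0.147 (median 0.0251) in control libraries. The T cell gene Cd3e was at 0 to 0.260 CPM in stroke and 0 to 0.0922 in control libraries. Of 12 lymphocyte markers 3 were tested, of which 1 rose and 2 fell, with a sum of 1.43 to 4.86 CPM in stroke and 1.88 to 7.98 in control libraries. Of 9 dendritic cell markers 5 were tested and 2 rose (3 called by DESeq2), with a sum of 7.22 to 13.5 CPM in stroke and 3.93 to 10.8 in control libraries. Flt3, which defines dendritic cells in that list, was at 0.0447 to 0.609 CPM in stroke and 0.0670 to 0.811 in control libraries. The part of microglial RNA and of these other cell types in the OPC changes was not tested.

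In astrocytes, 15 of 23 tested class I genes rose, 0 fell and 8 did not pass, where 5.63% of all tested genes rose and 4.68% fell. Of 57 genes 34 were tested and 3 had no count. The class I median was 0.92, against -0.04 over all genes, and 11 genes did not overlap between groups (4.19% of all genes). Of 11 class II genes 6 rose (H2-DMb1, H2-Ob, H2-DMa, Ifi30, H2-Oa and H2-DMb2) and 5 did not pass, with a median of 1.29. The 5 that did not pass were the chains H2-Aa, H2-Ab1 and H2-Eb1, Cd74 and Ciita. Besides the 12 genes described below, the lowest p-values belonged to H2-DMb1 (log2 fold change 2.15 ± 0.26 SE, edgeR adjusted p = 0.000112), H2-M3 (1.21 ± 0.15), H2-Ob (1.95 ± 0.25), H2-Q7 (1.55 ± 0.23), H2-T23 (1.20 ± 0.18) and H2-T22 (0.92 ± 0.15). H2-M3 had 13.8 to 20.9 CPM (median 15.0) in stroke and 5.76 to 8.91 CPM (median 6.70) in control libraries, and H2-Ob 2.53 to 6.06 CPM (median 4.74) in stroke and 0.896 to 1.35 CPM (median 1.26) in control libraries. Both were apart between groups. The call of Psmb10 was lost in 7 of 12 fits that left out 1 library (0.44 to 0.61; stroke 3, 4, 7, 8 or 12, or control 5 or 6), and that of H2-DMb2 in 9 (1.69 to 2.25; all but those without stroke 3 or 8 or control 10).

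Beside the astrocyte changes 11 of 12 microglia markers rose (median log2 fold change 1.44), and P2ry12 was at 64.0 to 105 CPM in stroke and 36.7 to 54.1 in control libraries. Monocyte and border macrophage markers summed to 10.6 to 32.3 CPM in stroke and 1.41 to 3.14 in control libraries, with 4 of 6 tested higher at an adjusted p under 0.05 and 1 lower. Ccr2 was at 0.303 to 3.60 CPM in stroke and 0.0341 to 0.255 in control libraries, without overlap. Astrocyte markers summed to 23740.0 to 50706 CPM in stroke and 24735 to 47019.8 in control libraries and 0 of 10 were called by edgeR (1 at an unadjusted p under 0.05, 0 by DESeq2). Of 9 dendritic cell markers 7 were tested and 2 rose, with a sum of 15.7 to 21.3 CPM in stroke and 9.99 to 25.0 in control libraries. Of 12 lymphocyte markers 4 were tested, of which 0 rose and 1 fell, with a sum of 6.91 to 10.3 CPM in stroke and 10.5 to 20.8 in control libraries. Their part in the MHC changes was not tested.

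In microglia neither comparison gave a call among these genes. Of 57 genes 29 were tested (21 class I, 8 class II) and 15 had no count in any microglial library. P2 stroke against P2 control gave 0 class I and 0 class II calls by edgeR, with 3 class I genes and 1 class II gene at an unadjusted p under 0.05, and 0 calls by DESeq2. Of all tested genes 0% rose, 0.00756% fell and 10.1% had an unadjusted p under 0.05. The median was 0.34 for class I and -0.20 for class II, against 0.05 over all genes. The samples analysed here hold no P4 control group, so P4 stroke was set against P2 stroke alone. This comparison, which shares the P2 stroke libraries, also gave 0 and 0 calls by edgeR and 0 by DESeq2, with 2 class I genes and 1 class II gene at an unadjusted p under 0.05, where 11.5% of all genes were. Its medians were 0.61 for class I and 0.64 for class II, against -0.00486 over all genes. Standard errors of log2 fold changes ran from 0.28 for B2m in P4 stroke against P2 stroke to 1.57 for Cd74 in P2 stroke against P2 control. In counts simulated from P2 stroke against P2 control, edgeR called 0 of 50 genes raised 2-fold and 1 of 50 raised 4-fold. A missing call in microglia therefore does not show that a gene was unchanged.

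**Figure D2:**
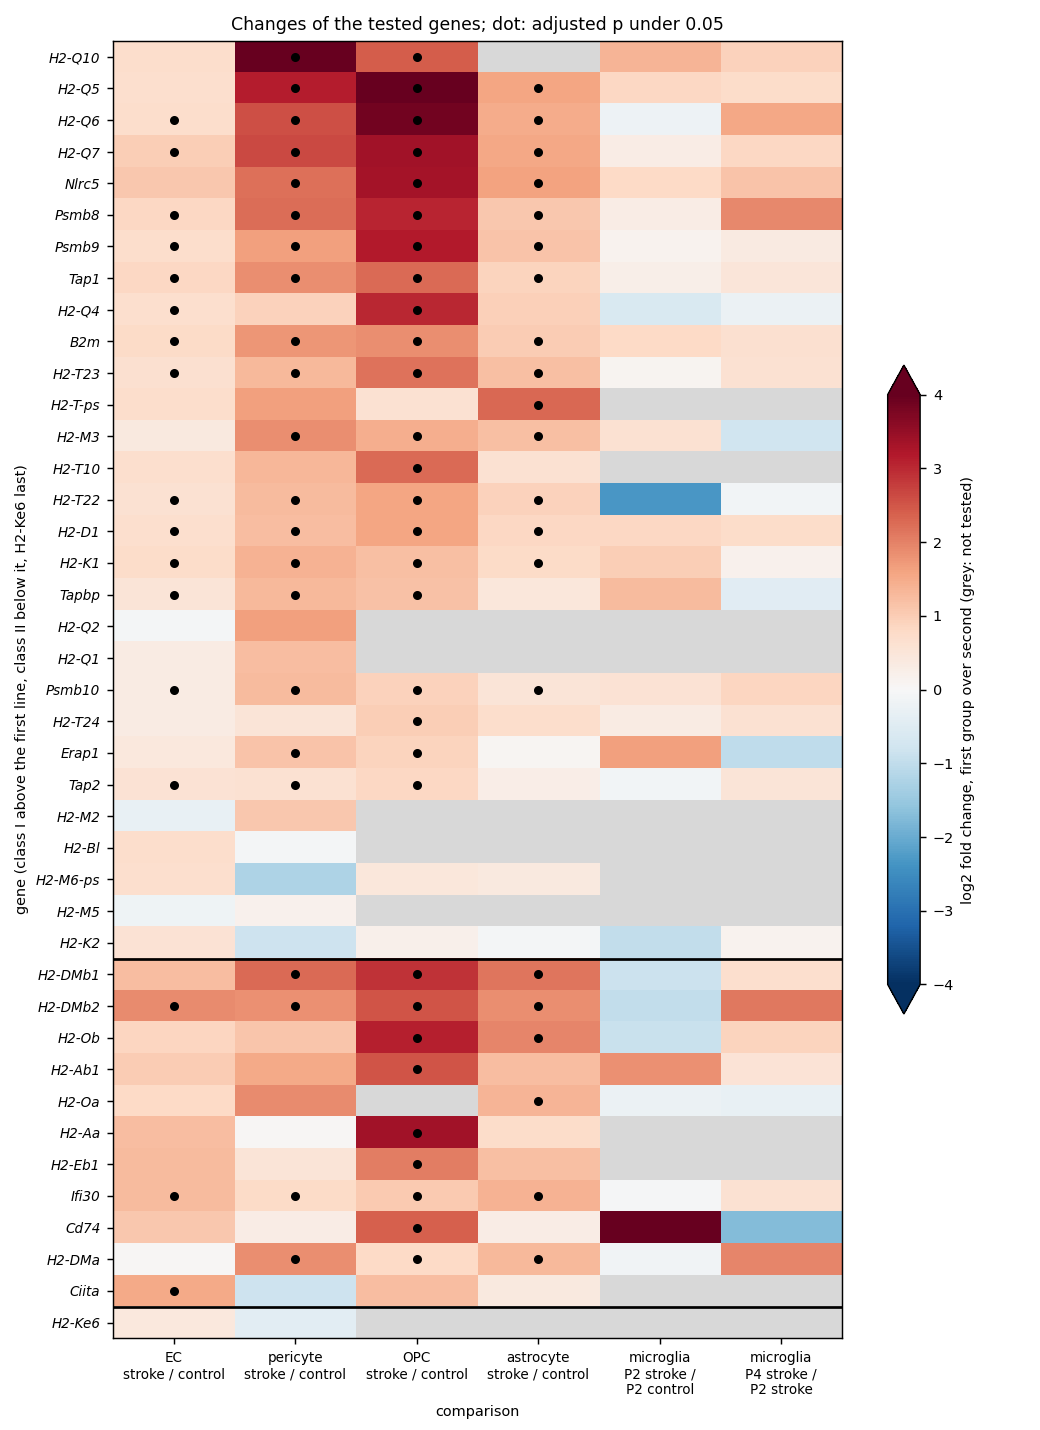
Log2 fold changes (colour, first group over second) of each tested gene in the 6 comparisons, with a dot where edgeR's adjusted p was under 0.05 and grey where the gene was not tested. Dots fill the OPC column (21 class I and 9 class II genes), thin out in the EC column (14 and 3) and are absent from both microglial columns.

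H2-K1, a classical class I heavy chain, rose in all 4 cell types outside microglia. In EC it had 1261 to 1798 CPM (median 1493) in stroke libraries, against 670.0, 832, 995, 1048 and 1094 CPM in controls. All 7 stroke libraries lay above all 5 controls (log2 fold change 0.72 ± 0.13 SE, edgeR adjusted p = 0.0123), with a log2 fold change of 0.33 in the library numbers up to 6 and 1.00 above 6. Pericytes had 349.9 to 921 CPM (median 529) in stroke and 81.7 to 493 CPM (median 156) in control libraries, and 5 of 8 stroke libraries exceeded every control (log2 fold change 1.40 ± 0.38 SE, edgeR adjusted p = 0.0124). In OPC there were 208 to 419.8 CPM (median 315) in stroke and 112 to 183 CPM (median 126) in control libraries, without overlap (log2 fold change 1.20 ± 0.16 SE, edgeR adjusted p = 6.62e-05). Astrocytes had 421 to 649 CPM (median 498) in stroke and 235 to 358 CPM (median 295) in control libraries, likewise apart (log2 fold change 0.75 ± 0.13 SE, edgeR adjusted p = 0.00212). Microglia had 30.0 to 994 CPM (median 476) in P4 stroke, 76.3 to 665 CPM (median 485) in P2 stroke and 7.27 to 487 CPM (median 193) in P2 control libraries. These 3 groups overlapped widely, and neither P2 stroke against P2 control (log2 fold change 0.99 ± 0.57 SE, edgeR adjusted p = 0.566) nor P4 stroke against P2 stroke (log2 fold change 0.18 ± 0.55 SE, edgeR adjusted p = 0.940) passed.

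H2-D1, the other classical heavy chain, also rose in these 4 types. EC stroke libraries had 2399 to 3633 CPM (median 2919), against 1279, 1665, 2067, 2129 and 2216 CPM in controls, without overlap (log2 fold change 0.68 ± 0.15 SE, edgeR adjusted p = 0.0206). The EC call was lost without control 7 (0.64, edgeR adjusted p = 0.0684) or control 9 (0.57, adjusted p = 0.0547). The values were 0.28 in the library numbers up to 6 and 0.95 above 6. Pericytes had 843 to 3271 CPM (median 1433) in stroke and 223 to 1403 CPM (median 566) in control libraries, with 4 of 8 stroke libraries above every control (log2 fold change 1.24 ± 0.41 SE, edgeR adjusted p = 0.0309). That call was lost when stroke 4 or control 9, 11, 14 or 15 was left out singly, with log2 fold changes of 0.99, 1.21, 1.09, 1.14 and 1.09. OPC had 516 to 1176 CPM (median 935) in stroke and 235 to 514 CPM (median 264) in control libraries, and all 6 stroke libraries were above control 12, the highest control (log2 fold change 1.58 ± 0.21 SE, edgeR adjusted p = 8.64e-05). In astrocytes there were 1036 to 1534 CPM (median 1161) in stroke and 510.2 to 852 CPM (median 672) in control libraries, apart as well (log2 fold change 0.84 ± 0.15 SE, edgeR adjusted p = 0.00307). Microglia had 449 to 1199.6 CPM (median 945) in P4 stroke, 16.6 to 881 CPM (median 575) in P2 stroke and 75.0 to 539.6 CPM (median 277) in P2 control libraries. The groups overlapped, and the fold changes did not pass in P2 stroke against P2 control (0.83 ± 0.45, adjusted p = 0.528) or P4 stroke against P2 stroke (0.72 ± 0.43, adjusted p = 0.558).

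B2m, the light chain shared by class I molecules, rose in the same 4 types. Its median was highest in P4 stroke microglia, with no test between cell types. In EC, stroke libraries had 1365 to 2618 CPM (median 2406), against 847, 1111, 1199, 1301 and 1634 CPM in controls, and 4 of 7 exceeded every control (log2 fold change 0.77 ± 0.21 SE, edgeR adjusted p = 0.0412). The EC call was lost in 8 of the 12 fits without 1 library (stroke 4, 8, 10 or 12, or control 5, 7, 9 or 11), with values of 0.67 to 0.90. The fold change was 0.38 in the library numbers up to 6 and 1.06 above 6. Pericytes had 734 to 2017 CPM (median 1205) in stroke and 111 to 888 CPM (median 342) in control libraries, with 6 of 8 stroke libraries above every control (log2 fold change 1.77 ± 0.42 SE, edgeR adjusted p = 0.00597). In OPC there were 227 to 523 CPM (median 404) in stroke and 78.2 to 181 CPM (median 88.2) in control libraries, with no overlap and a fold of 3.63 (log2 fold change 1.86 ± 0.22 SE, edgeR adjusted p = 2.98e-05). Astrocytes had 607 to 1048 CPM (median 841) in stroke and 304 to 583 CPM (median 387) in control libraries, also apart (log2 fold change 1.03 ± 0.18 SE, edgeR adjusted p = 0.00195). In microglia there were 3860.4 to 9621 CPM (median 5070.5) in P4 stroke, 1031 to 4796 CPM (median 4336) in P2 stroke and 1043 to 3706 CPM (median 1753) in P2 control libraries. The medians were lowest in P2 control and highest in P4 stroke, with 7 of 9 P2 stroke libraries above every P2 control, but neither P2 stroke against P2 control (0.81 ± 0.29, adjusted p = 0.337) nor P4 stroke against P2 stroke (0.63 ± 0.28, adjusted p = 0.375) passed.

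Tap1, the peptide transporter subunit, rose outside microglia in all 4 types. Its level in EC was 85.9 to 137 CPM (median 93.1) in stroke libraries, against 40.2, 49.8, 60.5, 64.6 and 68.8 CPM in controls, without overlap (log2 fold change 0.81 ± 0.14 SE, edgeR adjusted p = 0.0123; 0.53 in the library numbers up to 6 and 1.03 above 6). In pericytes it was 54.7 to 101 CPM (median 81.1) in stroke and 6.95 to 59.0 CPM (median 13.9) in control libraries, where control 8 alone reached into the stroke range (log2 fold change 1.86 ± 0.36 SE, edgeR adjusted p = 0.00167). OPC had 24.9 to 69.0 CPM (median 48.5) in stroke and 6.33 to 16.3 CPM (median 9.39) in control libraries, apart and 4.80-fold higher (log2 fold change 2.26 ± 0.25 SE, edgeR adjusted p = 1.21e-05). Astrocytes had 23.6 to 62.2 CPM (median 49.0) in stroke and 15.6 to 39.3 CPM (median 24.6) in control libraries, and stroke 12 lay inside the control range (log2 fold change 0.88 ± 0.24 SE, edgeR adjusted p = 0.0337). That call was lost in 8 of 12 fits without 1 library (stroke 3, 4, 7 or 8, or control 2, 6, 9 or 10), with values of 0.78 to 1.09. Microglia had 73.2 to 445 CPM (median 109) in P4 stroke, 47.0 to 156 CPM (median 106) in P2 stroke and 6.93 to 163 CPM (median 109) in P2 control libraries, with almost equal medians in all 3 groups. Neither P2 stroke against P2 control (0.24 ± 0.50, adjusted p = 0.905) nor P4 stroke against P2 stroke (0.50 ± 0.49, adjusted p = 0.766) passed.

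Psmb8, a catalytic subunit of the immunoproteasome, rose in all 4 types outside microglia. In EC it had 58.7 to 125 CPM (median 86.7) in stroke libraries, against 39.8, 40.2, 51.04, 58.2 and 61.4 CPM in controls, and 6 of 7 stroke libraries exceeded every control (log2 fold change 0.84 ± 0.18 SE, edgeR adjusted p = 0.0201). The EC call was lost without control 7 (0.76) or control 9 (0.77). The fold change was 0.39 in the library numbers up to 6 and 1.16 above 6. Pericytes had 48.4 to 121 CPM (median 78.3) in stroke and 4.67 to 47.2 CPM (median 9.71) in control libraries, just apart (log2 fold change 2.22 ± 0.46 SE, edgeR adjusted p = 0.00257). OPC had 12.7 to 50.3 CPM (median 39.8) in stroke and 3.09 to 7.93 CPM (median 3.49) in control libraries, with no overlap and a fold of 8.34 (log2 fold change 3.06 ± 0.32 SE, edgeR adjusted p = 8.20e-06). Astrocytes had 34.1 to 56.5 CPM (median 47.4) in stroke and 13.9 to 30.7 CPM (median 22.1) in control libraries, apart too (log2 fold change 1.08 ± 0.17 SE, edgeR adjusted p = 0.00104). In microglia there were 21.0 to 776 CPM (median 80.8) in P4 stroke, 1.03 to 70.4 CPM (median 44.3) in P2 stroke and 0.641 to 64.1 CPM (median 34.7) in P2 control libraries. P4 stroke 19 stood far above the rest, and neither P2 stroke against P2 control (0.29 ± 0.79, adjusted p = 0.931) nor P4 stroke against P2 stroke (1.93 ± 0.79, adjusted p = 0.336; 0.79 without P4 stroke 19) passed.

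Nlrc5, the class I transactivator, rose in pericytes, OPC and astrocytes. EC stroke libraries had 7.42 to 30.1 CPM (median 17.8), against 6.51, 7.03, 8.69, 9.71 and 10.5 CPM in controls. Of the 7 stroke libraries 5 exceeded every control (log2 fold change 1.07 ± 0.31 SE, edgeR adjusted p = 0.0552). It passed in EC without stroke 12 (1.18) or stroke 14 (1.19). The fold change was 1.26 in the library numbers up to 6 and 0.86 above 6. In pericytes there were 1.46 to 27.8 CPM (median 12.4) in stroke and 1.08 to 7.72 CPM (median 2.40) in control libraries, and all stroke libraries but stroke 7 lay above every control (log2 fold change 2.21 ± 0.50 SE, edgeR adjusted p = 0.00456). OPC had 4.45 to 24.5 CPM (median 10.9) in stroke and 0.652 to 2.53 CPM (median 0.853) in control libraries, apart and 10.0-fold higher (log2 fold change 3.32 ± 0.42 SE, edgeR adjusted p = 4.38e-05). In astrocytes there were 3.88 to 9.76 CPM (median 7.94) in stroke and 1.02 to 5.57 CPM (median 1.86) in control libraries, where 5 of 6 stroke libraries lay above control 6, the highest control (log2 fold change 1.60 ± 0.39 SE, edgeR adjusted p = 0.0185). Microglia had 22.7 to 661 CPM (median 107) in P4 stroke, 1.03 to 180.4 CPM (median 72.4) in P2 stroke and 0.338 to 188 CPM (median 9.17) in P2 control libraries. The P2 control median was the lowest, but the groups overlapped and neither P2 stroke against P2 control (0.78 ± 0.87, adjusted p = 0.788) nor P4 stroke against P2 stroke (1.15 ± 0.85, adjusted p = 0.668) passed.

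**Figure D3:**
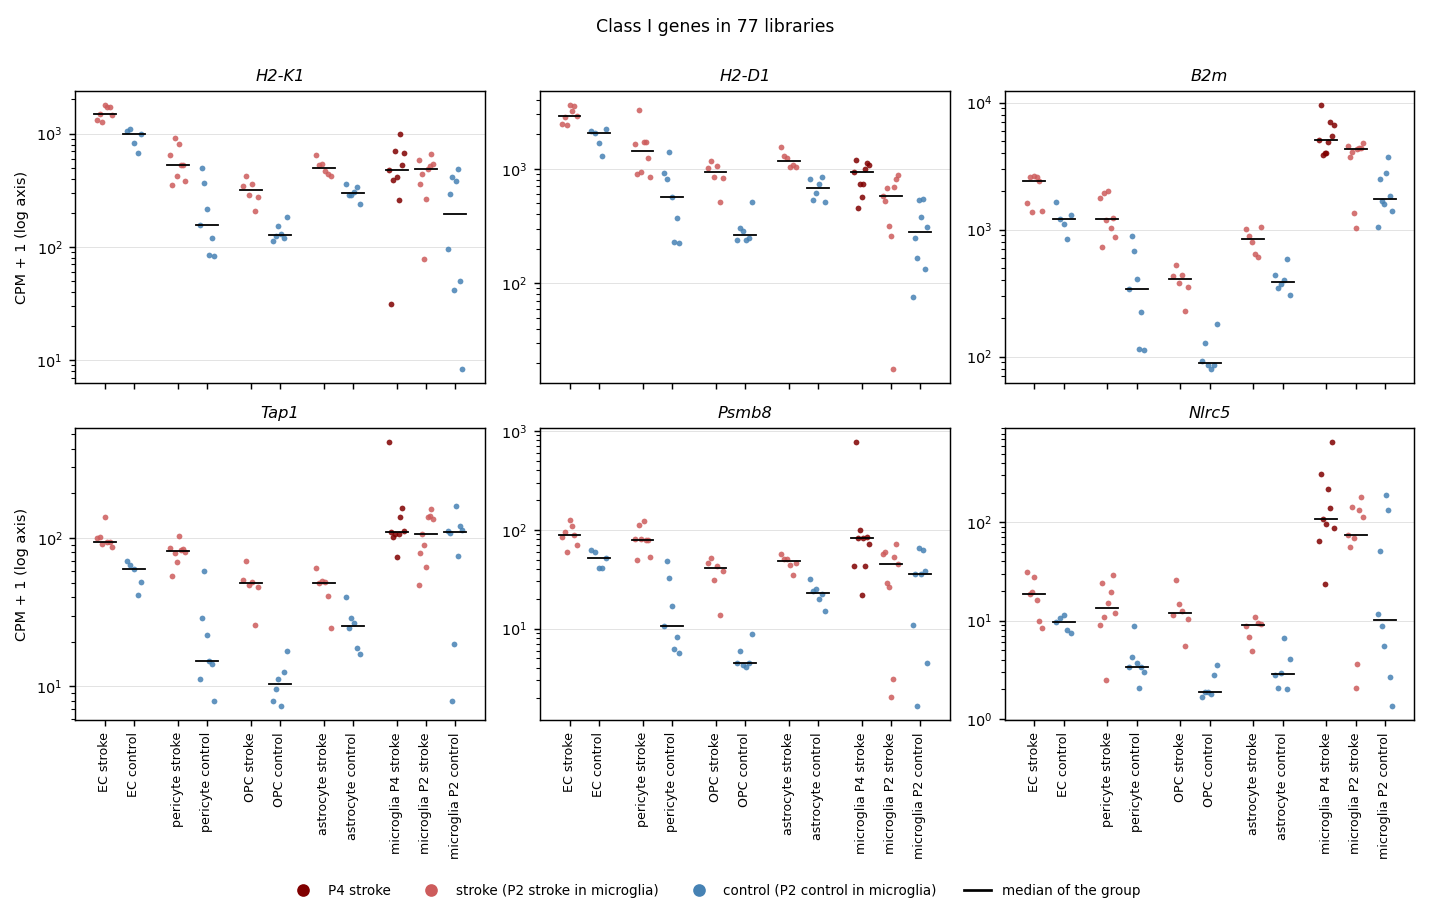
CPM plus 1 (log axis) of H2-K1, H2-D1, B2m, Tap1, Psmb8 and Nlrc5 in each of the 77 libraries, with the group median as a black line. OPC stroke and control libraries are apart in all 6 panels, and in microglia P2 stroke libraries overlap with both P4 stroke and P2 control libraries in every panel.

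The other class I genes split by how often they were measured. Of them H2-Q5, H2-T10 and H2-Bl are annotated as polymorphic pseudogenes, and H2-K2, H2-M6-ps, H2-M10.5-ps1, H2-Q3 and H2-T-ps as pseudogenes. Of 30 nonclassical class I genes 18 were tested in EC and 5 rose (3.57% of all genes did), 18 in pericytes and 7 rose (15.9%), 13 in OPC and 10 rose (11.7%), 12 in astrocytes and 7 rose (5.63%), and 10 in microglia with 0 called by edgeR. In all 4 types outside microglia 11 class I genes rose: H2-K1, H2-D1, B2m, Tap1, Psmb8, Psmb9, Psmb10, H2-Q6, H2-Q7, H2-T22 and H2-T23. A further 5 rose in 3 types (H2-M3, H2-Q5, Nlrc5, Tap2 and Tapbp), 3 in 2 types (Erap1, H2-Q4 and H2-Q10) and 3 in 1 type (H2-T-ps, H2-T10 and H2-T24), while 19 rose in none, most of them with few or no counts. H2-Q7, which like H2-Q6 encodes a Qa-2 type molecule, had 7.18 to 37.6 CPM (median 24.4) in OPC stroke and 1.08 to 5.23 CPM (median 1.68) in OPC control libraries, and 11.7 to 20.8 CPM (median 13.6) in astrocyte stroke and 3.14 to 7.56 CPM (median 4.57) in astrocyte control libraries. The groups were apart in both types. Heavy chain genes share long stretches of near-identical sequence, and how the counting treated reads that fit several of them is not given in the sources used here, so levels and changes of single H2-K, H2-D, H2-Q and H2-T genes are uncertain. The kit does not mark strand, so where genes overlap, as Tap1 and Psmb9 do at their starts, their reads cannot be told apart.

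H2-Aa, the class II alpha chain of the I-A molecule, rose in OPC. In EC, stroke libraries had 6.85 to 48.5 CPM (median 30.6), against 6.83, 6.85, 12.8, 15.6 and 22.1 CPM in controls. Of the 7 stroke libraries 5 exceeded every control, without passing (log2 fold change 1.23 ± 0.42 SE, edgeR adjusted p = 0.0955). In EC it passed without stroke 6 (1.39). The fold change was 0.65 in the library numbers up to 6 and 1.78 above 6. In pericytes there were 3.31 to 29.8 CPM (median 6.48) in stroke and 0.305 to 22.3 CPM (median 2.89) in control libraries. Only stroke 10 exceeded every pericyte control, and the estimate of 0.03 ± 0.77 (adjusted p = 0.979) ranged from -0.53 to 0.42 when single libraries were left out. OPC had 1.52 to 13.3 CPM (median 3.79) in stroke and 0.0697 to 1.62 CPM (median 0.327) in control libraries, with stroke 2 highest and only stroke 8 inside the control range (log2 fold change 3.36 ± 0.65 SE, edgeR adjusted p = 0.00175). Astrocytes had 4.03 to 18.9 CPM (median 7.68) in stroke and 2.17 to 14.4 CPM (median 3.66) in control libraries (log2 fold change 0.74 ± 0.46 SE, edgeR adjusted p = 0.380). The highest astrocyte control was control 1, without which the log2 fold change was 1.36 and passed (edgeR adjusted p = 0.0336). In microglia H2-Aa did not pass the filter. It had 0 to 26.9 CPM (median 0.303) in P4 stroke, 0 to 2.04 CPM (median 0.260) in P2 stroke and 0 to 34.8 CPM (median 0) in P2 control libraries, with 4 of 9, 4 of 9 and 6 of 8 libraries at 0.

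H2-Ab1, the matching beta chain, had the lowest p of all class II genes in OPC. EC stroke libraries had 12.7 to 72.0 CPM (median 42.5), against 10.9, 17.2, 20.1, 20.4 and 35.1 CPM in controls, overlapping (log2 fold change 1.01 ± 0.38 SE, edgeR adjusted p = 0.126; 1.15 and past the threshold without stroke 6; 0.62 in the library numbers up to 6 and 1.35 above 6). Pericytes had 18.9 to 102 CPM (median 34.8) in stroke and 1.20 to 33.1 CPM (median 5.93) in control libraries, and 4 of 8 stroke libraries exceeded every control (log2 fold change 1.52 ± 0.66 SE, edgeR adjusted p = 0.0942; 1.87 and past the threshold without control 6). In OPC there were 14.9 to 32.4 CPM (median 17.2) in stroke and 2.70 to 4.63 CPM (median 2.88) in control libraries, far apart and 5.73-fold higher (log2 fold change 2.52 ± 0.22 SE, edgeR adjusted p = 1.59e-06). Astrocytes had 16.0 to 37.4 CPM (median 19.7) in stroke and 3.16 to 26.2 CPM (median 6.99) in control libraries (log2 fold change 1.23 ± 0.42 SE, edgeR adjusted p = 0.0818). Of the astrocyte controls 5 of 6 lay below every stroke library. Without control 1 the log2 fold change was 1.87 (edgeR adjusted p = 0.000729). Microglia had 0 to 111 CPM (median 9.64) in P4 stroke, 0 to 35.2 CPM (median 21.2) in P2 stroke and 0 to 19.3 CPM (median 0.374) in P2 control libraries, with 1, 3 and 2 libraries at 0. The groups overlapped and neither P2 stroke against P2 control (1.82 ± 1.39, adjusted p = 0.674) nor P4 stroke against P2 stroke (0.54 ± 1.30, adjusted p = 0.924) passed.

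H2-Eb1, the beta chain of the I-E molecule, also rose in OPC. In EC, stroke libraries had 8.04 to 38.7 CPM (median 25.9), against 4.65, 5.09, 9.30, 9.38 and 22.1 CPM in controls, of which control 3 was highest (log2 fold change 1.27 ± 0.45 SE, edgeR adjusted p = 0.105; 1.77 and past the threshold without control 3; 0.65 in the library numbers up to 6 and 1.92 above 6). Pericytes had 5.02 to 25.4 CPM (median 8.67) in stroke and 0.973 to 16.2 CPM (median 4.13) in control libraries, overlapping (log2 fold change 0.52 ± 0.54 SE, edgeR adjusted p = 0.489). OPC had 2.37 to 11.3 CPM (median 5.72) in stroke and 0.785 to 2.32 CPM (median 1.39) in control libraries, just apart (log2 fold change 2.05 ± 0.34 SE, edgeR adjusted p = 0.000476). Astrocytes had 3.81 to 11.3 CPM (median 5.87) in stroke and 0.998 to 8.19 CPM (median 2.33) in control libraries, overlapping through control 1 (log2 fold change 1.20 ± 0.45 SE, edgeR adjusted p = 0.116; 1.81, adjusted p = 0.00510 without control 1). In microglia it did not pass the filter and was at 0 in 6 of 9 P4 stroke, 8 of 9 P2 stroke and 6 of 8 P2 control libraries.

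H2-DMa, a chain of the peptide exchange molecule, behaved otherwise than the chains above: it rose in pericytes, OPC and astrocytes, and its EC estimate was near 0. EC stroke libraries had 16.6 to 31.9 CPM (median 23.7), against 17.7, 23.8, 24.5, 25.0 and 28.0 CPM in controls, overlapping throughout (log2 fold change 0.05 ± 0.16 SE, edgeR adjusted p = 0.894; 0.08 in the library numbers up to 6 and 0.01 above 6). Pericytes had 20.4 to 79.8 CPM (median 39.8) in stroke and 5.97 to 18.9 CPM (median 9.58) in control libraries, apart (log2 fold change 1.86 ± 0.33 SE, edgeR adjusted p = 0.000882). OPC had 10.1 to 20.6 CPM (median 16.1) in stroke and 7.98 to 10.8 CPM (median 8.32) in control libraries, and 5 of 6 stroke libraries exceeded every control (log2 fold change 0.80 ± 0.15 SE, edgeR adjusted p = 0.00140). In astrocytes there were 20.6 to 42.9 CPM (median 23.9) in stroke and 7.98 to 14.1 CPM (median 11.4) in control libraries, apart (log2 fold change 1.29 ± 0.20 SE, edgeR adjusted p = 0.000964). Microglia had 71.7 to 926 CPM (median 158) in P4 stroke, 12.0 to 135 CPM (median 63.2) in P2 stroke and 0.338 to 156 CPM (median 66.1) in P2 control libraries. All 9 P4 stroke libraries lay above the P2 stroke median, with an unadjusted p of 0.00506 that did not pass after adjustment (log2 fold change 1.95 ± 0.65 SE, edgeR adjusted p = 0.220; 1.34 without P4 stroke 19, the highest library). P2 stroke against P2 control did not pass either (-0.16 ± 0.65, adjusted p = 0.961).

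Cd74, the invariant chain, rose in OPC. In EC, stroke libraries had 21.8 to 164 CPM (median 100.03), against 20.3, 25.8, 44.5, 48.8 and 78.2 CPM in controls. Of the 7 stroke libraries 5 exceeded every control, without passing (log2 fold change 1.09 ± 0.43 SE, edgeR adjusted p = 0.150; 0.57 in the library numbers up to 6 and 1.59 above 6). In pericytes there were 11.9 to 69.9 CPM (median 25.2) in stroke and 1.57 to 61.0 CPM (median 6.88) in control libraries, overlapping (log2 fold change 0.30 ± 0.69 SE, edgeR adjusted p = 0.768), and the fold change turned to -0.075 without stroke 10. OPC had 3.38 to 24.9 CPM (median 5.65) in stroke and 0.366 to 4.83 CPM (median 1.10) in control libraries, with stroke 2 highest and 4 of 6 stroke libraries above every control (log2 fold change 2.41 ± 0.60 SE, edgeR adjusted p = 0.00988). Astrocytes had 16.1 to 63.8 CPM (median 25.0) in stroke and 8.81 to 67.4 CPM (median 20.7) in control libraries, of which control 1 exceeded every stroke library (log2 fold change 0.29 ± 0.44 SE, edgeR adjusted p = 0.747). Microglia had 0.618 to 234 CPM (median 20.5) in P4 stroke, 0 to 1508 CPM (median 5.02) in P2 stroke and 0 to 26.9 CPM (median 0.607) in P2 control libraries. A single library, P2 stroke 11, held the highest value. With it P2 stroke against P2 control gave 4.85 ± 1.57 (unadjusted p = 0.00404, edgeR adjusted p = 0.318) and P4 stroke against P2 stroke -1.72 ± 1.31 (adjusted p = 0.678), and without it 0.68 and 2.46.

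Ciita, the class II transactivator, was at most 4.85 CPM in every library but 1, the microglial P4 stroke 21. EC stroke libraries had 1.08 to 4.54 CPM (median 2.73), against 0.371, 0.643, 1.13, 1.15 and 1.41 CPM in controls. Of the 7 stroke libraries 5 exceeded every control (log2 fold change 1.52 ± 0.43 SE, edgeR adjusted p = 0.0483; 1.78 in the library numbers up to 6 and 1.30 above 6). This call was lost in 10 of 12 fits without 1 library, all but those without stroke 6 and stroke 14, with values of 1.32 to 1.70. Pericytes had 0.0982 to 2.98 CPM (median 1.56) in stroke and 1.15 to 4.81 CPM (median 3.34) in control libraries, where no stroke library reached the control median (log2 fold change -0.83 ± 0.53 SE, edgeR adjusted p = 0.244). OPC had 0.418 to 1.45 CPM (median 1.09) in stroke and 0.0349 to 1.31 CPM (median 0.287) in control libraries, overlapping through control 12 (log2 fold change 1.22 ± 0.57 SE, edgeR adjusted p = 0.151; 1.90 and past the threshold without control 12). Astrocytes had 0.221 to 2.67 CPM (median 1.40) in stroke and 0.474 to 1.97 CPM (median 0.969) in control libraries (log2 fold change 0.39 ± 0.48 SE, edgeR adjusted p = 0.683). In microglia Ciita did not pass the filter and was at 0 in 6 of 9 P4 stroke, 4 of 9 P2 stroke and 4 of 8 P2 control libraries, while P4 stroke 21 had 244 CPM. The highest value of the other P4 stroke libraries was 4.85 CPM.

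**Figure D4:**
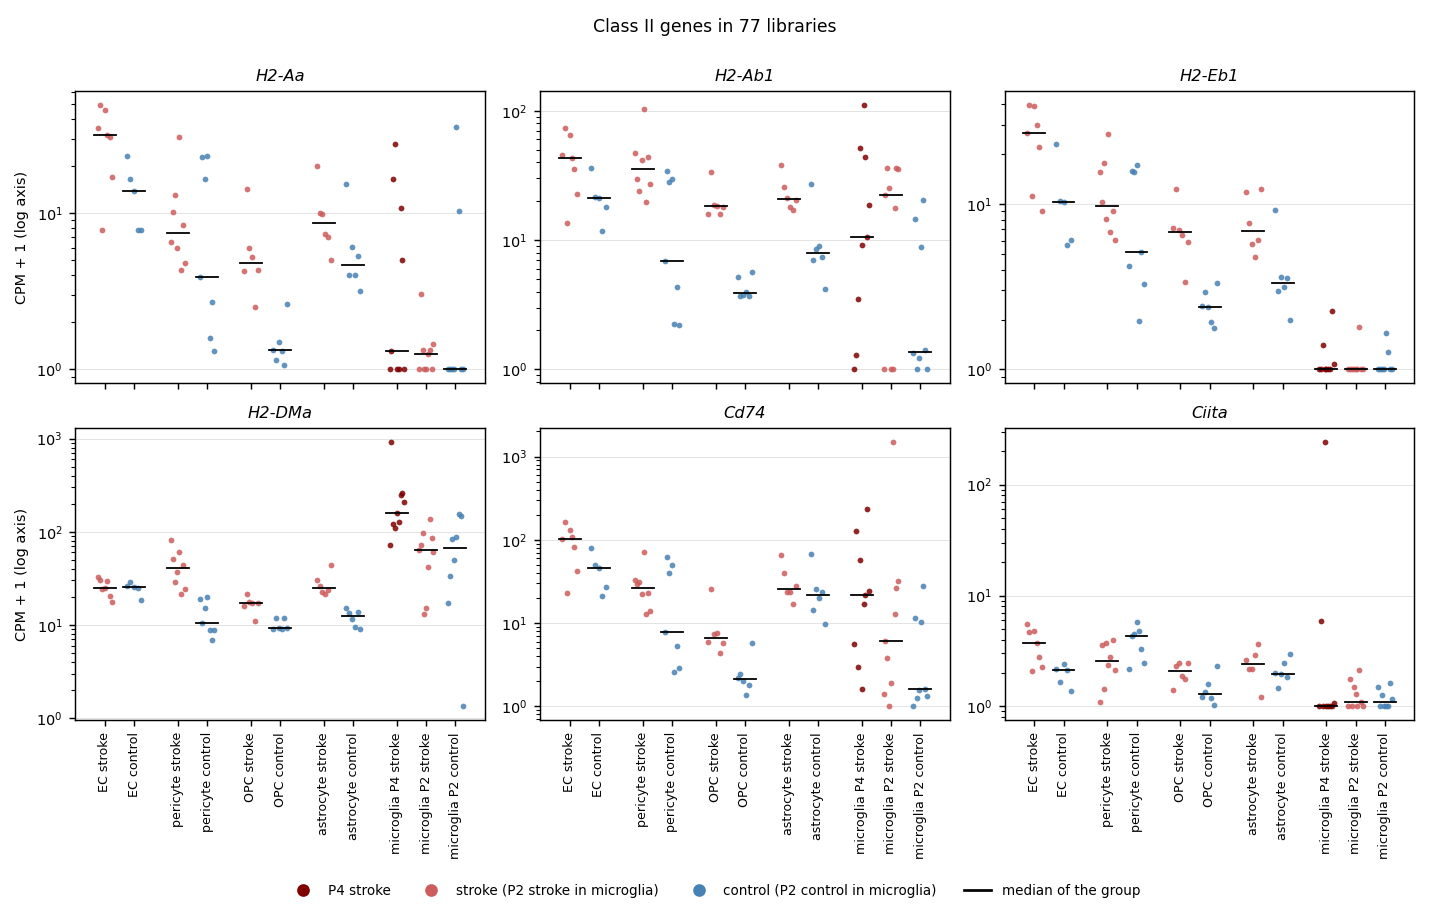
CPM plus 1 (log axis) of H2-Aa, H2-Ab1, H2-Eb1, H2-DMa, Cd74 and Ciita in each of the 77 libraries, with the group median as a black line. OPC controls hold at most 1.62 CPM of H2-Aa and 4.83 CPM of Cd74, the astrocyte control 1 stands above the other controls for H2-Aa, H2-Ab1 and Cd74, and P2 stroke 11 holds 1508 CPM of Cd74.

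Across the 4 types outside microglia 2 class II genes rose in all, H2-DMb2 and Ifi30, 2 in 3 types (H2-DMa and H2-DMb1), 1 in 2 types (H2-Ob), 6 in 1 type and 4 in none. Of the 6, the chains H2-Aa, H2-Ab1 and H2-Eb1 and Cd74 rose in OPC, H2-Oa in astrocytes and Ciita in EC. Ifi30 had 3.00 to 6.30 CPM (median 3.58) in EC stroke, against 1.04, 1.40, 1.76, 1.78 and 2.29 CPM in EC control libraries, and 5.35 to 13.5 CPM (median 6.88) in astrocyte stroke and 1.91 to 3.68 CPM (median 3.06) in astrocyte control libraries. Both pairs of groups were apart. H2-DMb1 had 4.89 to 30.4 CPM (median 17.7) in pericyte stroke and 0.731 to 8.81 CPM (median 2.06) in pericyte control libraries, and 2.99 to 7.07 CPM (median 4.12) in OPC stroke and 0.209 to 1.62 CPM (median 0.331) in OPC control libraries, apart in OPC and overlapping in pericytes.

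Whether the stroke response of a gene differed between cell types was tested in 1 fit over the 51 libraries of EC, pericytes, OPC and astrocytes. Of 30 class I genes tested 9 differed and of 11 class II genes 1, where 14.3% of all tested genes did. They were H2-Q5 (edgeR adjusted p = 3.15e-05), Psmb9 (0.00102), H2-DMa (0.00145), Psmb8 (0.00235), H2-M3 (0.00463), H2-Q6 (0.00926), H2-Q10 (0.0131), H2-Q7 (0.0143), Tap1 (0.0148) and Nlrc5 (0.0327). H2-K1, H2-D1, B2m, H2-Ab1, H2-Eb1 and Cd74 did not pass this test (adjusted p of 0.364, 0.291, 0.135, 0.363, 0.362 and 0.211), and neither did H2-Aa (0.0582) and Ciita (0.0621). The rise of H2-Ab1, H2-Eb1 and Cd74, called in OPC and not elsewhere, is therefore not shown to differ among the 4 types.

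In pairs of cell types, the OPC response exceeded the EC response for 8 class I genes, where 1.94% of all genes did and 0.416% were lower. Psmb9 differed by 2.54 ± 0.49 on the log2 scale (SE, edgeR adjusted p = 0.000810), Psmb8 by 2.29 ± 0.51, Nlrc5 by 2.33 ± 0.62 and Tap1 by 1.52 ± 0.43, beside H2-Q5, H2-Q6, H2-Q7 and H2-T23. The OPC response exceeded the astrocyte response for Psmb9 (2.09 ± 0.49), Psmb8 (2.03 ± 0.51) and H2-Q5 (2.71 ± 0.59), where 1.12% of all genes were higher and 0.309% lower. The pericyte response exceeded the EC response for 6 class I genes (H2-M3 by 1.46 ± 0.31, Psmb8 by 1.40 ± 0.48, H2-Q10 by 4.27 ± 0.98, and Psmb10, H2-Q5 and H2-Q7) and for H2-DMa (1.81 ± 0.35), and fell short of it for Ciita (-2.34 ± 0.75), where 7.1% of all genes were higher and 6.18% lower. Against OPC the pericyte response was smaller for H2-Q4, Psmb9 (-1.58 ± 0.46) and H2-Aa (-3.38 ± 0.96), where 5.91% of all genes were lower and 5.17% higher. These were 3 of 42 genes, near the share over all genes. Against astrocytes the pericyte response was larger for Erap1 (1.02 ± 0.32), where 4.43% of all genes were higher and 1.99% lower. That was 1 of 42 genes, no more than the share over all genes. Astrocytes and EC differed for 0 of 42 genes by edgeR (2 at an unadjusted p under 0.05), where 0.0317% of all genes were higher and 0.0158% lower. These pairs share cell types and come from 1 fit, with no adjustment over the pairs. H2-T23, Psmb10, Ciita, H2-Q4, H2-Aa and Erap1 did not pass the test over all 4 types. Their edgeR adjusted p there was 0.0628, 0.115, 0.0621, 0.0635, 0.0582 and 0.0678, so their differences between pairs are uncertain.

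**Figure D5:**
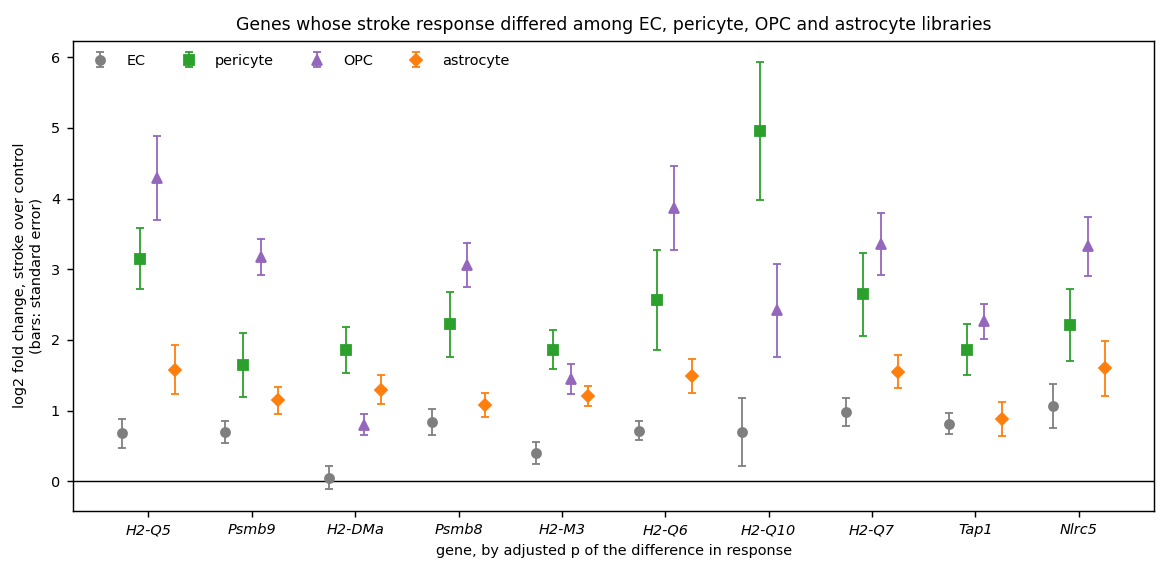
Log2 fold change of stroke over control with its standard error for the 10 genes whose response differed among EC, pericytes, OPC and astrocytes, ordered by the adjusted p of that test. OPC triangles are highest for H2-Q5, Psmb9, Psmb8, H2-Q6, H2-Q7, Tap1 and Nlrc5, pericyte squares for H2-Q10, H2-M3 and H2-DMa, and EC circles are the lowest of the points shown for each of the 10 genes (H2-Q10 was not tested in astrocytes).

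Genes that work with these pathways but are not MHC genes were counted beside all tested genes, of which 3.57% rose in EC, 15.9% in pericytes, 11.7% in OPC and 5.63% in astrocytes. Of 10 chaperones of class I loading 9 rose in pericytes, led by P4hb (1.63 ± 0.26), Sec61a1 (0.98 ± 0.19) and Pdia3 (1.09 ± 0.23), while 1 rose in OPC, Tapbpl, a relative of Tapbp (0.74 ± 0.14), and 0 in EC and astrocytes (0 in EC and 2 in astrocytes at an unadjusted p under 0.05, and 0 and 1 called by DESeq2). Of 7 proteasome genes 2 rose in EC, 6 in pericytes, 2 in OPC and 1 in astrocytes. The 1 of 10 chaperones in OPC is near the share over all genes. The proteasome activator subunit Psme2 was among the risers in all 4 (0.49 ± 0.10 in EC, 1.26 ± 0.26 in pericytes, 0.52 ± 0.11 in OPC and 0.59 ± 0.14 in astrocytes). Of 12 tested genes of class II processing 1 rose in EC, 4 in pericytes, 2 in OPC and 4 in astrocytes. The protease Ctss, which cleaves the invariant chain, rose in all 4 (1.36 ± 0.23 in EC, 2.37 ± 0.56 in pericytes, 3.42 ± 0.29 in OPC and 1.59 ± 0.20 in astrocytes). Ctss is also abundant in microglia.

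Of 9 tested genes of interferon gamma signalling 5 rose in EC, 8 in pericytes, 7 in OPC and 5 in astrocytes, beside the same shares of all genes (3.57%, 15.9%, 11.7% and 5.63%). Irf1, a transcription factor that acts on class I promoters, rose in EC (0.69 ± 0.09), pericytes (1.42 ± 0.33) and OPC (0.91 ± 0.14) and had 0.39 ± 0.14 in astrocytes (edgeR adjusted p = 0.0963). Irf8, a factor of myeloid cells, rose in all 4, by 1.28 ± 0.27 in EC, 2.61 ± 0.40 in pericytes, 3.69 ± 0.36 in OPC and 2.15 ± 0.14 in astrocytes. RNA of interferon gamma itself, Ifng, was at most 0.312 CPM in any library. Of 8 tested genes of costimulation 1 rose in EC, 3 in pericytes, 7 in OPC and 2 in astrocytes. The inhibitory ligand Cd274 rose in all 4 types (0.58 ± 0.13 in EC, 1.64 ± 0.47 in pericytes, 1.45 ± 0.29 in OPC and 0.65 ± 0.19 in astrocytes). The T cell costimulator Cd86 rose in pericytes (2.16 ± 0.39), OPC (2.56 ± 0.34) and astrocytes (1.51 ± 0.21). No gene of these 5 lists fell in any of the 4 types. Of the 44 tested in microglia edgeR and DESeq2 each called 0 in P2 stroke against P2 control and 0 in P4 stroke against P2 stroke. By edgeR 9 and 5 had an unadjusted p under 0.05, where 10.1% and 11.5% of all tested genes did. The 5 are near the share over all genes.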

How the data were processed

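RNA was extracted with a NucleoSpin RNA XS kit and made into libraries with a Takara SMART-Seq v4 kit, per the labels' protocols, and that kit does not mark strand. The authors deposited raw counts per gene, 1 table per cell type. Per the submitters' processing notes bcl2fastq 2.20, STAR and HTSeq were used with the genome build GRCm38. Library names of EC, pericyte, OPC and astrocyte samples start with hisat, also the name of an aligner, and microglial ones do not. The aligner behind each table could therefore not be told. How reads that fit several genes were treated, which annotation was used, and the STAR and HTSeq versions were not given in the sources used here. Gene symbols came from an identifier table that named 52403 of 52636 identifiers. Samples were grouped by their titles.

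Each table was fitted alone with edgeR 4.0.16 (R 4.3.3): TMM scaling, filterByExpr by group, glmQLFit and glmQLFTest, Benjamini-Hochberg adjustment over all genes tested and a threshold of 0.05. Microglial comparisons share a fit of 26 libraries. CPM use TMM library sizes. The standard error is the absolute log2 fold change divided by the square root of F. Differences in response came from 1 fit of 51 libraries. The method was tried on simulated counts with known changes. For the pericyte comparison edgeR called 18 of 56 genes raised 2-fold and 27 of 36 raised 4-fold. Of genes lowered to 0.5 and 0.25 it called 12 of 51 and 24 of 43. For P2 stroke against P2 control microglia it called 0 of 50 and 1 of 50 raised genes. Of lowered genes it called 0 of 38 and 1 of 42. Alternatives were DESeq2 1.42.0, its size factors, library totals alone, no filter, library classes and leaving out each library.

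The genes and lists were chosen with earlier results of these data known. Every gene of the set could be named: 12 genes stand with values by library in each comparison, beside up to 6 other called genes with the lowest p, and of each list of other pathway genes up to 3 with the lowest p per comparison (Irf1 is given in all 4 types outside microglia, which was decided after its values were seen; 1 listed gene is not reported here).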

Additional observations from a re-analysis of the deposited data

Results flagged for a closer look

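For the 12 genes given by library, 132 pairs of gene and group were examined for a single library far from the rest of its group (Dixon's test on log2 of CPM plus 1), and 18 had one. Chance gives about 1 in 20 groups. In P4 stroke microglia, library 19 had 30.0 CPM of H2-K1 (259 to 994 in the others), 776 of Psmb8 (21.0 to 98.1) and 926 of H2-DMa (71.7 to 263), library 18 had 445 of Tap1 (73.2 to 158), library 21 had 244 of Ciita (0 to 4.85) and library 25 had 1.25 of H2-Eb1 (0 to 0.413). In P2 stroke microglia, library 11 had 1508 CPM of Cd74 (0 to 31.3) and 16.6 of H2-D1 (259.9 to 881), library 9 had 76.3 of H2-K1 (265 to 665), library 5 had 2.04 of H2-Aa (0 to 0.462) and library 15 had 0.807 of H2-Eb1, all others being at 0. P2 control microglia 14 had 0.338 CPM of H2-DMa (16.1 to 156). Libraries 9, 11, 14, 18 and 19 are among the 7 microglial libraries with fewer than 10000 genes at 10 or more counts; the part of this in their values was not tested.

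Outside microglia, OPC stroke 2 had 32.4 CPM of H2-Ab1 (14.9 to 17.6 in the others) and 24.9 of Cd74 (3.38 to 6.70), OPC stroke 8 had 12.7 of Psmb8 (30.4 to 50.3) and OPC control 12 had 514 of H2-D1 (235 to 299.6). EC stroke 8 had 137 CPM of Tap1 (85.9 to 101) and pericyte stroke 7 had 1.46 of Nlrc5 (8.09 to 27.8).

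The stroke response differed between EC, pericytes, OPC and astrocytes, by edgeR's interaction test, for Psmb8 (adjusted p = 0.00235), Tap1 (0.0148), H2-DMa (0.00145) and Nlrc5 (0.0327) among the 12 genes.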

How the results depend on the processing

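No paired analysis was possible because control and stroke libraries of a cell type share no library numbers. Of the counts of genes called, 14 class I genes in EC became 0 in the library numbers up to 6 alone and 0 above 6 alone, and 3 class II genes in EC became 1 without a filter, 5 with DESeq2, 1 with the library class as covariate, 0 up to 6 and 0 above 6. The number of genes whose response differed between cell types, 9 class I and 1 class II, was 2 and 2 with P2 microglia added as a cell type, and 11 and 3 with library totals alone. Leaving out each library gave 4 to 16 class I and 0 to 4 class II calls in EC, 16 to 19 and 3 to 5 in pericytes, 21 to 21 and 9 to 10 in OPC, 13 to 16 and 5 to 8 in astrocytes, and 0 to 0 of both in each microglial comparison. The EC classes hold fewer libraries, and their median log2 fold changes moved as well. For class I genes the median was 0.37 up to 6 and 0.76 above 6, against 0.67 over all EC libraries. For class II genes it was 0.64 and 1.53, against 1.23. The cause of the shifts in the counts was not tested.

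Of the alternatives for the 12 genes, 5 turned the direction, 16 ended a call, 5 gained one and 322 changed neither, apart from leaving out libraries. The 5 were H2-Aa in pericytes (0.03; -0.13 with library totals alone, -0.18 with control 11 and 15 summed), H2-DMa in P2 stroke against P2 control microglia (-0.16; 0.29 without the 7 libraries with few detected genes, an alternative chosen after seeing the data) and Cd74 in P4 against P2 stroke microglia (-1.72; 2.56 with DESeq2, 1.99 without those 7 libraries). Leaving out single libraries moved Cd74 in pericytes between -0.075 and 0.75 and in P4 against P2 stroke microglia between -2.46 and 2.46, H2-Aa in pericytes between -0.53 and 0.42, H2-Ab1 and H2-K1 in P4 against P2 stroke microglia between -0.18 and 0.73 and between -0.018 and 0.33, and H2-DMa in P2 stroke against P2 control microglia between -0.34 and 0.12 and in EC between -0.041 and 0.12. H2-D1 in pericytes, 1.24, was 1.09 and no longer called with control 11 and 15 summed.

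Library totals alone moved the median of all genes to 0.10 in EC, -0.28 in pericytes and 0.11 in OPC, and the genes higher and lower to 940 and 254 in EC (749 and 560), 2573 and 4198 in pericytes (3440 and 2787) and 3347 and 804 in OPC (2133 and 1593). DESeq2 called 1605 higher and 1217 lower genes in EC, 176 and 128 in P2 stroke against P2 control microglia (0 and 1) and 41 and 177 in P4 against P2 stroke microglia (0 and 1), with 0 of the 57 genes in either, and no filter gave 311 lower genes in EC, 2 lower genes in P2 stroke against P2 control microglia and 10 higher and 42 lower genes in P4 against P2 stroke microglia.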
